A study of Mus musculus with 18 samples.

Results

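The comparison described here is that of ribosome-bound mRNA from Nav1.8-expressing sensory neurons of mice given paclitaxel with the same fraction from normal mice. Its members are 9 of the 18 libraries of the series, all of them pulldown libraries, which gave 4 values for normal mice (biosamples 1 to 4) and 4 for paclitaxel mice (biosamples 5 to 8) once the 2 subsamples of biosample 7 were averaged. The animals of both groups were Nav1.8-trap mice, males and females aged 8 to 12 weeks, from a cross of Rosa26fsTRAP mice with Nav1.8cre mice on a C57BL/6J background. Controls and treated mice therefore carried the same Cre driver and the same EGFP-L10a fusion, and only cells with Nav1.8 promoter activity made the tagged ribosomes. Paclitaxel was injected intraperitoneally at 4 mg/kg, 4 times within 8 days, to a cumulative dose of 16 mg/kg. The labels call the other group normal, and do not state whether it received the vehicle described in the treatment notes. They do not state the number or the sex of the mice in a biosample. The series text says that 2 of 5 paclitaxel assays were pooled to give 4 replicates. Only biosample 7 has subsamples, and the authors' merged columns are of these subsamples. P-values below measure the spread between the biosamples.

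Nociceptors, the sensory neurons of the dorsal root ganglion that detect painful stimuli, mostly express the sodium channel Nav1.8. In translating ribosome affinity purification (TRAP), a ribosomal protein fused to GFP is made in a chosen cell type and antibodies to GFP recover its ribosomes with the mRNAs on them, so that the libraries read mRNA bound to ribosomes and not protein made. Paclitaxel stabilises microtubules, is used against tumours and can leave a painful neuropathy. The title of the series names the network of RagA and mTORC1. RagA is a small GTPase that, with its partners and the Ragulator complex, brings the kinase complex mTORC1 to the lysosome, where mTORC1 raises protein synthesis, in particular of ribosomal proteins and translation factors.

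Values are in CPM, the reads of a gene as a share of all reads of its library on a common scale, with no division by transcript length. The 9 pulldown libraries held 5972327 to 32713514 reads and reached 1 CPM in 8081 to 13228 genes. The fewest were in subsample 1 of biosample 7, whose subsample 2 reached 11945 genes. The number of genes at 1 CPM or more did not separate the treatments (9715, 10147, 12076 and 12439 in normal and 10884, 10399, 11897 and 13228 in paclitaxel biosamples; two-sided exact permutation test, p = 0.571). The 10 most abundant genes took 7.94% to 11.4% of the reads in the normal and 5.14% to 6.36% in the paclitaxel pulldowns, without overlap. The subsamples of biosample 7 differed by a median of 1.23 on the log2 scale and had a rank correlation of 0.756, below any of the correlations within a treatment (0.807 to 0.894). Markers of nociceptors, the labelled cell type, summed to 13099 to 16146 CPM in the 8 pulldown values and 6522 to 10910 CPM in the 8 inputs, the whole extracts of the same homogenates, and none of the 30 markers was at 0 in all pulldowns.

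In the pulldowns 757 of 11848 genes tested passed limma's test at a Benjamini-Hochberg adjusted p under 0.05, which is 6.39%: 543 genes (4.58%) were higher and 214 (1.81%) lower after paclitaxel. Tests were run on log2(CPM + 1), which understates the change of genes near the floor, and all changes given below are paclitaxel minus normal on that scale. The median change of the genes that rose was 1.66 and of those that fell -1.33, while the median over all genes was 0.18. The values of the 4 normal and 4 paclitaxel biosamples did not overlap for 1436 genes (12.1%), higher after paclitaxel for 944 (7.97%) and lower for 492 (4.15%), among them 447 of the genes that rose and 179 of those that fell. The shift of the median bears on the balance of directions. With median-ratio scaling, which brings the median of all genes to 0.0041, 341 genes rose and 361 fell, with quantile normalization 434 rose and 328 fell, edgeR on recovered reads gave 174 rises and 256 falls, and DESeq2 439 and 603. Without the intensity trend in the variance limma called 0 genes (2014 at an unadjusted p under 0.05), and without a filter on low values it also called 0 (2375 at an unadjusted p under 0.05). edgeR called 430 and DESeq2 1042 genes. Leaving out 1 biosample at a time gave 338 to 1019 genes, with the lowest count without biosample 7 (338), and counts below 500 also without biosamples 1 (401), 5 (436) and 8 (457).

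**Figure D1:**
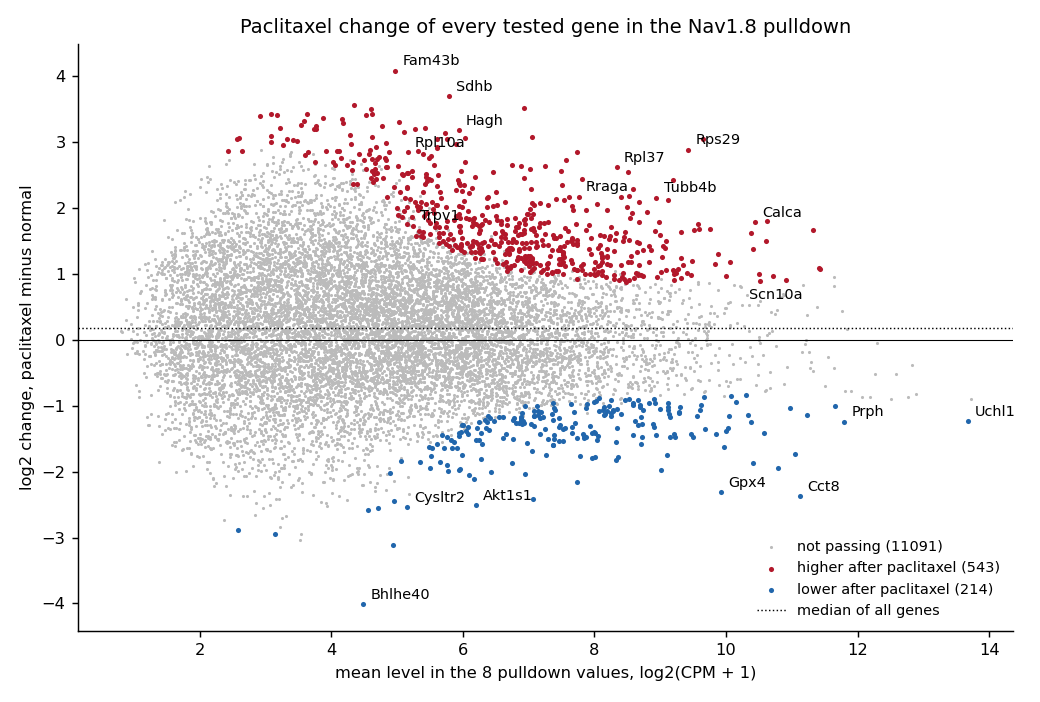
Log2 change of each of the 11848 tested genes in the pulldown (y axis, paclitaxel minus normal, log2 of CPM + 1) against its mean level over the 8 pulldown values (x axis, log2 of CPM + 1). Each point is a gene, red for the 543 that were higher, blue for the 214 that were lower and grey for those that did not pass. The dotted line is the median of all genes at 0.18. Uchl1, Prph, Cct8 and Gpx4 lie among the abundant genes that fell, and Calca among the abundant genes that rose.

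The targeted genes came out differently for the driver and for the tag. Scn10a, which encodes Nav1.8 and lies on the minus strand of chromosome 9 (119608456 to 119719322, build GRCm38), stood at 977, 1077, 1387 and 567 CPM in the normal pulldowns and 1633, 1601, 989 and 1398 CPM after paclitaxel. The groups overlapped, and the change of 0.53 (SE 0.287, limma adjusted p = 0.301; exact permutation p = 0.114) did not pass. Rpl10a, whose protein is the tagged one (chromosome 17, 28328471 to 28331033, plus strand), was at 9.28, 1.19, 14.1 and 8.71 CPM in normal and 43.7, 34.7, 124 and 42.7 CPM in paclitaxel pulldowns. Every paclitaxel value was above every normal value and the change of 2.84 passed (SE 0.672, limma adjusted p = 0.00709). The exact permutation p of 0.0286 is the smallest that 4 against 4 can give. The 3′ reads counted for Rpl10a cannot be assigned here to the endogenous gene or to the fusion transcript. In input the change of Rpl10a was 1.14 and did not pass (adjusted p = 0.19).

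Neuropeptides and receptors that define nociceptors moved in both directions. Of 28 nociceptor markers tested, 4 rose (14.3%, against 4.58% of all genes) and 2 fell (7.14%, against 1.81%), with a median of 0.53 beside 0.18 for all genes. Only 1 fell without biosample 1, 2, 4, 5 or 7. Calca encodes calcitonin gene-related peptide alpha, a peptide that nociceptors release in pain and vasodilation (ENSMUSG00000030669.13, chromosome 7, 114631478 to 114636357, minus strand). It was at 523, 717, 950 and 368 CPM in normal and 1994, 1803, 2976 and 1720 CPM in paclitaxel pulldowns. The lowest paclitaxel value lay well above the highest normal value, and the change was 1.78 (SE 0.291, limma adjusted p = 0.000154). Calcb, which encodes the beta form of the peptide, rose by 1.6 (SE 0.327), from 77.3 ± 29.8 to 225 ± 35.9 CPM (SD, n = 4 each).

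Trpv1, the channel opened by capsaicin and heat, was low in the normal pulldowns at 13.9, 13.4, 16.6 and 17.6 CPM and stood at 38, 57.4, 103 and 35.2 CPM after paclitaxel. The change was 1.73 (SE 0.524, limma adjusted p = 0.0389), and it passed in 2 of the 8 fits that left out a biosample. Cysltr2, a receptor for cysteinyl leukotrienes that marks the nonpeptidergic itch neurons, fell by 2.54 (SE 0.667), from 30.2, 75.8, 18.1 and 120 CPM to 11.1, 9.02, 3.24 and 8.42 CPM. Prph encodes peripherin, the intermediate filament of small-diameter sensory neurons. Its values of 5973, 3885, 2925 and 7460 CPM in normal and 1835, 1580, 2133 and 2613 CPM in paclitaxel pulldowns did not overlap, and it fell by 1.24 (SE 0.311). In a pulldown, fewer cells of a type and less of an mRNA per cell cannot be told apart.

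Among 50 other pain receptors and channels tested, a list that also holds Trpv1, 6 rose and 0 fell (12% and 0%). Asic3, an acid-sensing channel, rose by 2.09 and Htr3a, a subunit of the ionotropic serotonin receptor, by 2.00. Grik1, a kainate receptor subunit, went from 392 to 884 CPM on average, a change of 1.25, and Ano3, of the anoctamin family, changed by 1.19. F2rl2, a protease-activated receptor, rose by 1.47. With median-ratio scaling 2 of the list rose, and with edgeR on recovered reads 0 did. Without biosample 1 or 7 only 1 rose, without 5, 6 or 8 it was 2, and without 4 it was 3.

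Of 20 genes of sodium channels and the sodium pump, 4 rose (20%, against 4.58% of all genes) and 0 fell (against 1.81%). None of the 4 is a voltage-gated channel. Fxyd2, a regulatory subunit of the sodium-potassium pump, which restores the ion gradients after firing, was at 373, 288, 502 and 231 CPM in normal and 1070, 632, 1533 and 1232 CPM in paclitaxel pulldowns, a rise of 1.67 (SE 0.292). Fxyd7, of the same family, rose by 1.78 and the pump's beta subunit Atp1b1 by 1.2. With median-ratio scaling, with edgeR, and without any one of biosamples 5, 7 and 8, 2 of the list rose.

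Of 38 potassium channel genes 4 rose (10.5%) and 0 fell, and 3 of the 4 encode Kv channel-interacting proteins, the cytosolic partners of the A-type Kv4 channels. Kcnip2 was at 20.6, 63.9, 117 and 30.5 CPM in normal and 248, 160, 437 and 357 CPM in paclitaxel pulldowns, without overlap, a rise of 2.56 (SE 0.4). Kcnip3 rose by 1.85 and Kcnip4 by 1.8. The median of the list was 0.65, and 2 genes rose in edgeR and without biosample 6. Of 18 calcium channel genes 1 rose, the auxiliary subunit Cacnb4 (1.37), a share of 5.56% beside 4.58% of all genes.

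In the Rag, Ragulator and mTORC1 list 2 of 45 genes rose and 1 fell (4.44% and 2.22%), shares near those of all genes, and the median was 0.19. Only 1 rose without biosample 7 or 8, and 2 fell without 3. Rraga, which encodes RagA (ENSMUSG00000070934.6, chromosome 4, 86575668 to 86577285, plus strand), was at 94.3, 98.0, 144 and 20.9 CPM in the normal and 484, 314, 325 and 246 CPM in the paclitaxel pulldowns. All paclitaxel values lay above all normal values, and the change was 2.17 (SE 0.385, limma adjusted p = 0.000375). It passed in 24 of 26 alternative analyses, the exceptions being the fits without a filter and without the intensity trend. These alternatives share the same biosamples, and the looser threshold of 0.1 among them is met by any gene that passed. In the input the corresponding values were 92.4, 375, 153 and 52.0 CPM in normal and 246, 234, 193 and 159 CPM in paclitaxel mice, a change of 0.66 that did not pass. The difference between the pulldown and input changes of Rraga was 1.51 and did not pass either (adjusted p = 0.063).

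Lamtor5, a subunit of Ragulator, the lysosomal scaffold for the Rag GTPases, was at 17.0, 9.92, 35.0 and 14.2 CPM in normal and 55.6, 58.9, 89.4 and 84.7 CPM in paclitaxel pulldowns. It rose by 1.98 (SE 0.488). Akt1s1 encodes PRAS40, a component of mTORC1 that inhibits the kinase until it is phosphorylated. It was at 160, 91.9, 95.7 and 148 CPM in normal and 21.2, 27.7, 14.8 and 19.4 CPM in paclitaxel pulldowns, so that the groups were far apart, and it fell by 2.51 (SE 0.413, limma adjusted p = 0.000168). The fall of Akt1s1 passed in input as well, at -1.22 (adjusted p = 0.0482), but no input fall passed without biosample 1, 5, 7 or 8. Rraga, Lamtor5 and Akt1s1 were the only genes of the list that passed, and 42 of 45 did not. With edgeR and with quantile normalization 2 of the list rose and 2 fell, and with DESeq2 2 rose and 3 fell.

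Other members named by the study's subject did not pass. Mtor, the kinase, was at 5.64, 0.56, 8.58 and 4.86 CPM in normal and 15.6, 26.3, 17.5 and 15.3 CPM in paclitaxel pulldowns. These low values did not overlap, yet the change of 1.97 had an SE of 0.84 and an adjusted p of 0.167. Rptor, the scaffold of mTORC1, gave 0.05, and the sign of this value differed between alternatives. Rragb, the gene of the close relative RagB, gave -2.03 (SE 0.706, adjusted p = 0.0787), from 63.5, 21.8, 15.2 and 43.5 to 11.7, 4.52, 5.53 and 7.28 CPM. Its direction was opposite to that of Rraga. Eif4ebp1, the repressor of cap-dependent translation that mTORC1 phosphorylates, gave 1.65 (adjusted p = 0.325).

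**Figure D2:**
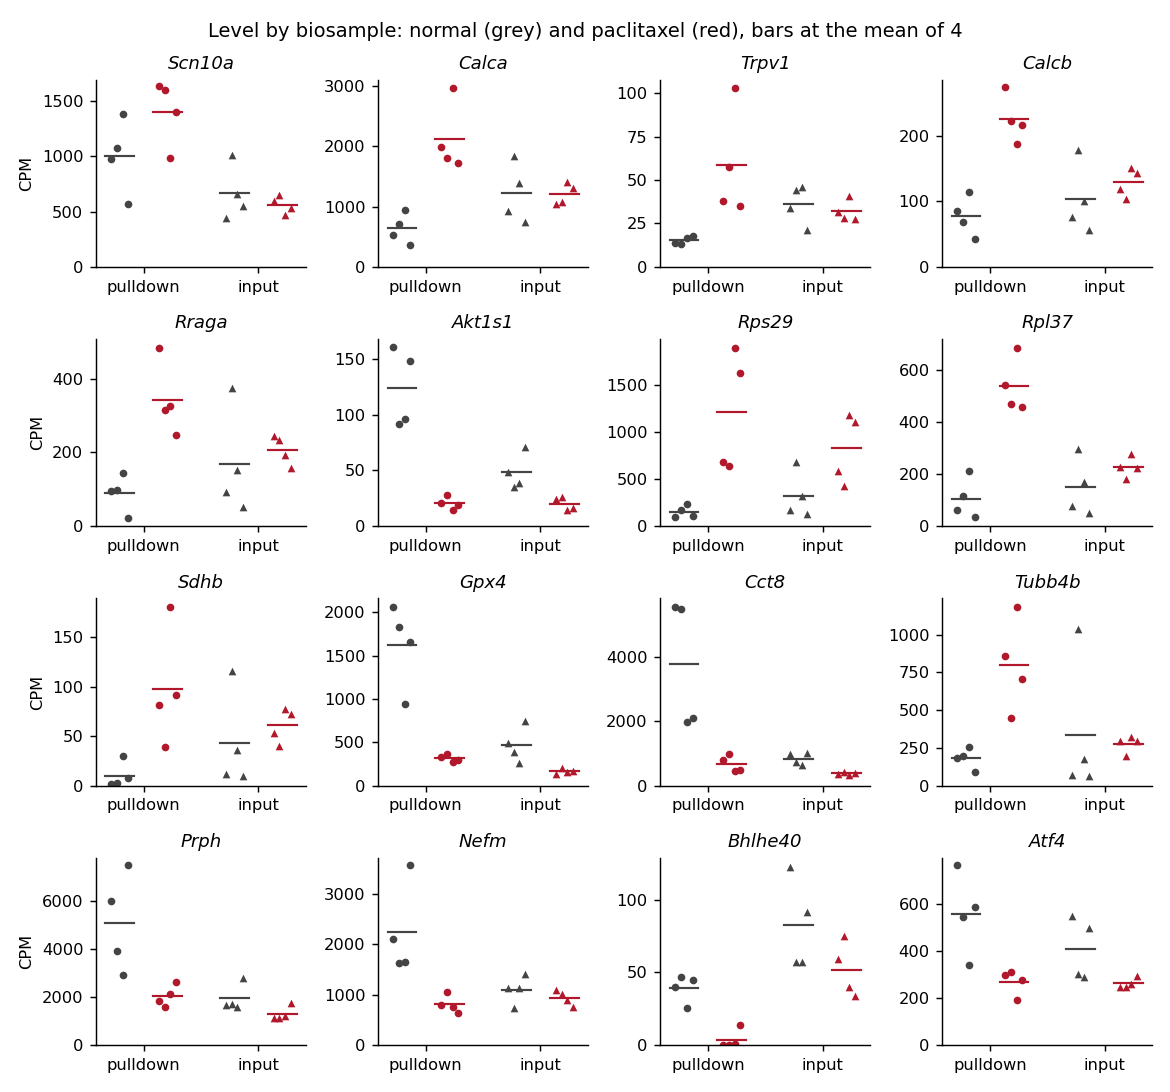
CPM of 16 genes in each biosample, with pulldown values as circles and input values as triangles, normal in grey and paclitaxel in red. Each point is a biosample, horizontal bars are means of 4, and each panel has its own linear axis from 0. Calca, Rraga, Rps29 and Sdhb lie higher and Akt1s1, Gpx4, Cct8 and Nefm lower in the paclitaxel pulldowns without overlap, while Scn10a overlaps.

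Translation initiation and elongation genes moved in both directions. In the list of eIF4F, MNK and cap-binding genes 0 of 22 rose and 1 fell (4.55%), while without biosample 3 there were 2 of each. That gene was Larp1, which encodes a repressor of mRNAs with a 5′ terminal oligopyrimidine tract, the class that includes ribosomal protein mRNAs. Larp1 went from 461 ± 44.8 to 211 ± 24.1 CPM (SD, n = 4 each), a change of -1.13 (SE 0.266, limma adjusted p = 0.00696). Eif4e, the cap-binding protein, was at 83.5, 105, 87.4 and 77.5 CPM in normal and 103, 70.5, 171 and 99.2 CPM in paclitaxel pulldowns. These values overlapped, and the change was 0.26 (adjusted p = 0.725). Cyfip2, of the same list, gave 0.85 with an adjusted p of 0.0544.

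Of 37 other translation factors 5 rose and 5 fell (13.5% each), with a median of 0.25. Eef1a1, which delivers aminoacyl-tRNA to the ribosome, rose by 1.76 (SE 0.321), from 177, 462, 684 and 213 to 1196, 803, 1284 and 1289 CPM. Eif1 and Eif5a, factors of start site selection and of elongation, rose by 1.36 and 1.55, Eif3g by 1.56, and Eef2, the translocase, by 0.91. Subunits of the nucleotide exchange factor eIF2B fell, Eif2b5 by 1.33 and Eif2b4 by 1.16, as did the eIF3 subunits Eif3m by 1.59 and Eif3b by 1.19. Eef1d, the exchange factor for eEF1A, fell by 1.53, and its annotation overlaps that of Naprt. The eIF3 complex thus had members on both sides. With edgeR 1 of the list rose and 6 fell. Leaving out biosample 1, 2, 5 or 7 gave 3 rises and leaving out 8 gave 2, while 2 genes fell without 1 and 3 without 2, 7 or 8.

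Cytosolic ribosomal protein genes moved in both directions. Of 82 tested, 17 rose (20.7%) and 8 fell (9.76%), and 57 did not pass; the median was 0.28, close to that of all genes. Rps29 had the lowest p of all genes (ENSMUSG00000034892.8, chromosome 12, 69157722 to 69159186, minus strand). It was at 100.5, 171, 235 and 110.3 CPM in the normal and 684, 640, 1905 and 1628 CPM in the paclitaxel pulldowns, a change of 2.88 (SE 0.327, limma adjusted p = 1.48e-06). Rpl37 went from 61.1, 116, 212 and 35.5 to 541, 468, 685 and 458 CPM, a change of 2.62 (SE 0.357). Rpl39 rose by 2.29, Rpl23a by 1.85, Rps3 by 1.78 and Rpl34 by 1.49. All of these encode structural proteins of the large or the small subunit.

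Among the members that fell, Rpl24 was at 3774, 3145, 1884 and 4290 CPM in normal and 732, 795, 1006 and 1321 CPM in paclitaxel pulldowns, without overlap, and fell by 1.74 (SE 0.293, limma adjusted p = 0.000243). Its annotation overlaps a predicted gene on the same strand. Rpsa, a component of the small subunit that is also known as a laminin receptor, fell by 1.48, from 844 ± 315 to 290 ± 72.9 CPM. Rpl36al fell by 1.27, Rpl8 by 1.10, Rpl14 by 1.06, Rplp2 by 0.89, Fau by 0.88 and Rpl38 by 0.86. Ribosomal protein genes have many near-identical processed copies in the genome, so the division of reads between them is uncertain. The balance of the list moved between analyses. With median-ratio scaling 11 rose and 9 fell, edgeR called 8 rises and 9 falls, and with the trend with length and 3′ GC content together removed from each library 8 rose, 14 fell and the median was -0.27. Without biosamples 1, 7 and 8 there were 10, 9 and 11 rises, and the falls went down to 2 without biosample 1, 3 without 2, 4 without 5, 6 or 7 and 5 without 8.

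Many genes of the respiratory chain rose. Of 42 genes for complex I subunits and assembly factors 12 rose (28.6%, against 4.58% of all genes) and 1 fell, with a median of 0.71. Of 40 genes of complexes II to V, 17 rose (42.5%) and 1 fell, with a median of 1.08. In input 0 of both lists passed, with medians of 0.32 and 0.51. Sdhb, the iron-sulfur subunit of succinate dehydrogenase (chromosome 4, 140961203 to 140979193, plus strand), was at 1.25, 2.42, 29.8 and 7.2 CPM in normal and 81.2, 38.6, 180 and 92 CPM in paclitaxel pulldowns. The groups did not overlap and the change was 3.70 (SE 0.676, limma adjusted p = 0.000527).

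Cytochrome c oxidase, the terminal enzyme of the chain, contributed 9 of the 17 rises of complexes II to V. Cox7b rose by 2.64, Cox5a by 2.46, Cox7a2 by 2.28, Cox6b1 by 1.91, Cox8a by 1.79 and Cox6a1 by 1.65, and Cox4i1, Cox5b and Cox6c by 1.27, 0.98 and 0.94. Of the ATP synthase, Atp5j2 went from 158, 147, 253 and 89.2 to 564, 592, 662 and 805 CPM, a change of 2.09 (SE 0.29). Atp5c1 rose by 2.03 and Atp5o by 1.30. Complex III gave Uqcrq at 2.06, Uqcrfs1 at 1.6, Uqcr11 at 1.18 and Uqcr10 at 0.92. The gene that fell was Atpif1 (-0.99), the inhibitor of the ATP synthase.

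In complex I, Ndufs8 rose by 2.76, Ndufa4 by 2.44 and Ndufa8 by 2.01, and Ndufb8 went from 1038 to 1881 CPM on average, a change of 0.90. Ndufa4, listed here with complex I and known also as a component of cytochrome c oxidase, was at 19.1, 90.0, 167 and 60.6 CPM in normal and 384, 254, 390 and 422 CPM in paclitaxel pulldowns. Ndufs5 was the member that fell, by 1.36, from 1205 to 432 CPM on average. With the length and GC trend removed, complex I had 4 rises and 7 falls and complexes II to V 10 rises and 5 falls, and with edgeR there were 4 and 2, and 9 and 1. Without biosample 7 there were 5 rises in complex I, and without 3 and 4 there were 5 and 3 falls. These lists consist of short mRNAs, with median lengths of 850 and 744 nt.

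Of 77 genes for proteins of the mitochondrial ribosome 11 rose (14.3%) and 1 fell, with a median of 0.59. Mrps36 was at 1.75, 1.79, 13.8 and 26.5 CPM in normal and 66.2, 39.4, 103 and 83.3 CPM in paclitaxel pulldowns, a change of 3.22 (SE 0.68). Mrpl42 rose by 1.82 and Mrps21 by 1.75, and Mrpl14 fell by 1.55, from 486 to 154 CPM on average. With edgeR 5 rose and 1 fell. The rises numbered 7 without biosample 1 or 5, 6 without 7 and 5 without 8.

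Mitochondrially encoded mRNAs, which cytosolic ribosomes do not translate, made up 563, 636, 807 and 861 CPM of the normal and 986, 1031, 3124 and 4138 CPM of the paclitaxel pulldowns in sum. These groups did not overlap, and biosamples 7 and 8 were far above 5 and 6. Of 10 such genes tested 5 rose and 0 fell, mt-Nd2 by 2.73, mt-Co1 by 2.50, mt-Nd1 by 1.64, mt-Cytb by 1.51 and mt-Nd4 by 1.19. Without any one of biosamples 1, 2, 7 and 8 only 2 of them rose, and edgeR called 3. The same sum was 3817 to 10884 CPM in normal and 10118 to 21682 CPM in paclitaxel inputs. Its part in the rises of the nuclear respiratory genes was not tested.

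Of 32 genes that protect against oxidants 7 rose (21.9%) and 1 fell (3.12%), with a median of 0.74. The gene that fell was Gpx4, the selenoenzyme that reduces lipid hydroperoxides and holds off ferroptosis (ENSMUSG00000075706.10, chromosome 10, 80047166 to 80056439, plus strand). Gpx4 was at 2066, 1829, 939 and 1662 CPM in the normal and 335, 360, 269 and 294 CPM in the paclitaxel pulldowns. The highest paclitaxel value was below every normal value, and the change was -2.32 (SE 0.275, limma adjusted p = 2.49e-06). In input Gpx4 was at 497, 383, 256 and 741 CPM in normal and 139, 202, 160 and 171 CPM in paclitaxel mice and fell by 1.38 (adjusted p = 0.0342). The fall thus passed in both fractions, and the difference of -0.93 between them did not pass (adjusted p = 0.118). In input no gene passed as lower without biosample 1, 5, 7 or 8, so the call there was lost with any 1 of these left out.

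The other antioxidant genes that passed went up. Hagh, the glyoxalase that completes methylglyoxal removal, was at 5.04, 26.5, 11.5 and 6.03 CPM in normal and 111, 44.0, 148 and 131 CPM in paclitaxel pulldowns, a change of 3.18 (SE 0.542). Prdx5, a peroxiredoxin, rose by 2.63, and Gclm, the modifier subunit of the enzyme that starts glutathione synthesis, by 2.54. Sod1, the cytosolic superoxide dismutase, rose by 1.69 (SE 0.287), from 388 ± 57.4 to 1333 ± 563 CPM. Txn1, thioredoxin, was at 557, 668, 1306 and 596 CPM in normal and 2357, 1596, 1968 and 1796 CPM in paclitaxel pulldowns and rose by 1.38. Gpx1 rose by 1.32. With edgeR 3 of the list rose and 1 fell, and 3 rose without biosample 7 or 8. Gpx2, a glutathione peroxidase that was not in the list, was among the largest falls (-2.95), at 20.3, 12.2, 8.32 and 16.4 CPM in normal and 0, 0, 1.97 and 3.31 CPM in paclitaxel pulldowns. It passed in 1 of 8 fits without a biosample.

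Chaperone genes moved in both directions. Of 33 genes of the heat shock and chaperone list 5 rose and 6 fell (15.2% and 18.2%), with a median of 0.03. The number of falls varied with the biosample left out, with 1 left without biosample 2 or 7, 2 without 1 and 3 without 8. Cct8, a subunit of the chaperonin TRiC that folds actin and tubulin (chromosome 16, 87483326 to 87495873, minus strand), was at 5540, 5463, 1984 and 2101 CPM in normal and 807, 966, 464 and 486 CPM in paclitaxel pulldowns. It fell by 2.37 (SE 0.327, limma adjusted p = 2.23e-05) and also in input by 1.11, where the call was lost without biosample 1, 5, 7 or 8. Another subunit, Cct5, fell by 0.96, while Cct3 rose by 1.89. Hsp90aa1 fell by 1.03, the endoplasmic reticulum paralog Hsp90b1 by 0.94, the co-chaperone Ptges3 by 0.96 and mitochondrial Hspa9 by 1.18. Hspa8, the constitutive cytosolic chaperone, rose by 1.74, from 111 ± 31.0 to 372 ± 91.3 CPM. Hspb1, the small heat shock protein induced in injured neurons, rose by 2.14, Dnajc5 by 2.05 and Dnajb1 by 1.87.

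The proteasome list had 4 rises and 4 falls among 47 genes (8.51% each) and a median of -0.16. The rises were in the 20S core, which holds the proteolytic chamber: Psma2 by 2.55, Psma1 by 1.88, Psma6 by 1.72 and Psmb6 by 1.05. Of the falls, Psmd9, Psmd13 and Psmd4 belong to the 19S cap or its assembly and changed by -1.95, -1.43 and -1.16. Psmb3, of the core, fell by 1.39. The Psma2 annotation overlaps that of a neighbouring transcript on the same strand. With the length and GC trend removed 1 gene rose and 12 fell. Leaving out biosample 1, 4 or 5 gave 2 rises and leaving out 7 gave 1, while 1 gene fell without 1, 2 without 2 and 7 without 3.

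Of 28 ubiquitin genes and enzymes 4 rose and 1 fell (14.3% and 3.57%, against 4.58% and 1.81% of all genes). The rises numbered 1 without biosample 1 or 7, 2 without 4, 5, 6 or 8, and 7 without 3. The conjugating enzymes Ube2v1, Ube2d2a, Ube2k and Ube2d3 rose by 2.43, 1.19, 1.05 and 0.91, and edgeR called none of the rises. Uchl1, the neuronal ubiquitin hydrolase, was at 29525, 23675, 9169 and 12371 CPM in normal and 8714, 10314, 5626 and 5133 CPM in paclitaxel pulldowns. The groups overlapped, biosamples 1 and 2 held the high values, and the fall of 1.23 (SE 0.38, limma adjusted p = 0.0429) passed in 3 of the 8 fits without a biosample. In input Uchl1 fell by 1.14 (adjusted p = 0.0479), a call that was lost without biosample 1, 5, 7 or 8.

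In the V-ATPase and lysosome list 3 of 32 genes rose and 1 fell (9.38% and 3.12%, against 4.58% and 1.81% of all genes). Without biosample 1, 2, 5 or 7 only 1 rose, without 6 there were 5 rises and without 3 there were 6. The proton pump, which acidifies lysosomes and to which Ragulator docks, had members on both sides: Atp6v1a rose by 1.44 and Atp6v0c by 1.01, and Atp6v0a1 fell by 1.17. Ctsb, cathepsin B, rose by 0.99.

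Among tubulins, the proteins to whose polymer paclitaxel binds, 3 genes rose. In the list of tubulins and microtubule-associated genes 5 of 38 rose (13.2%) and 1 fell (2.63%), with a median of 0.31, and the 3 rises with the lowest p were beta-tubulins. Tubb4b was at 185, 195, 254 and 87.4 CPM in normal and 858, 450, 1184 and 707 CPM in paclitaxel pulldowns, a change of 2.16 (SE 0.314, limma adjusted p = 3.33e-05). Tubb2a went from 694, 961, 1041 and 307 to 2794, 2129, 2542 and 2094 CPM, a change of 1.8 (SE 0.307), and Tubb5 rose by 1.5. None of these 3 overlapped between the groups. Their inputs changed by 0.67, 0.47 and 0.71 and did not pass, with normal biosample 2 at 1038 CPM for Tubb4b and 2822 CPM for Tubb2a beside 63.5 to 177 and 206 to 610 CPM in the other normal inputs. Stmn1, which destabilises microtubules, rose by 1.02 and Map1lc3b by 1.15, and Map1a, a stabilising axonal protein, fell by 1.14. Tubb3, the neuronal beta-tubulin, gave -0.89 and did not pass (adjusted p = 0.107). With edgeR 3 of the list rose and 3 fell, and 3 rose without biosample 1 or 5.

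Of 29 axonal motor genes 4 rose (13.8%) and 3 fell (10.3%), with a median of 0. The falls were in kinesins, which carry cargo towards the axon terminal: Kif3a by 1.46, Kif3c by 1.33 and Kif5a by 0.86. The rises were in dynein and dynactin or their regulators, which carry cargo back to the cell body: Dctn6 by 3.13, Dctn3 by 1.59, Dynlrb1 by 1.54 and Ndel1 by 1.36. Kif5a, the neuronal conventional kinesin, was at 1479, 1128, 1151 and 1775 CPM in normal and 843, 914, 756 and 542 CPM in paclitaxel pulldowns. Dctn3 was at 156, 162, 147 and 81.0 CPM in normal and 436, 358, 483 and 338 CPM in paclitaxel pulldowns. Neither overlapped. With edgeR 1 gene of the list rose and 4 fell. Only 1 fell without biosample 1, 4, 5 or 8.

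Neurofilaments and related cytoskeletal genes fell in 3 of 14 cases (21.4%) and rose in 1. Nefm, the medium neurofilament subunit, was at 2100, 1631, 1655 and 3569 CPM in normal and 799, 1041, 757 and 637 CPM in paclitaxel pulldowns, and fell by 1.41 (SE 0.285). Plec, the cytolinker plectin, fell by 1.47 (SE 0.272), from 614 ± 81.8 to 225 ± 57.3 CPM, and Prph has been given above. Actg1, cytoplasmic actin, rose by 1.67 (SE 0.429), from 952, 1861, 2889 and 247 to 4924, 4936, 2538 and 2131 CPM, with overlap. With edgeR, with DESeq2 and with the length and GC trend removed 0 genes of the list rose. The same held without biosample 1, 4, 5 or 6, while 1 rose without 2, 3, 7 or 8.

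Of 44 synaptic vesicle and SNARE genes 6 rose (13.6%) and 3 fell (6.82%), with a median of 0.05. Syngr3, Rab3a and Sv2c, proteins of synaptic vesicles, rose by 1.79, 1.69 and 1.51. Napa, Syn2 and Chga rose by 1.62, 1.40 and 1.27. Syp, synaptophysin, fell by 1.63, from 74.5, 28, 47.4 and 123 to 26.9, 15.2, 11.7 and 24.0 CPM, and Sv2b and Cpe, a peptide-processing enzyme, fell by 1.05 and 1.00. With median-ratio scaling 3 rose and 6 fell. There were 3 rises without biosample 1 or 7, 1 fall without 1 or 8 and 0 falls without 5 or 7.

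In the list of the integrated stress response and in that of immediate early genes, the genes that passed were lower. In the list of the integrated stress response and endoplasmic reticulum stress 0 of 27 genes rose and 2 fell (7.41%), with a median of -0.24. The falls numbered 0 without biosample 1, 2 or 7 and 1 without 4, 5, 6 or 8, and 1 gene rose without 3, 4 or 5. Atf4, the transcription factor whose translation the integrated stress response raises, was at 767, 543, 338 and 586 CPM in normal and 297, 310, 191 and 277 CPM in paclitaxel pulldowns. It fell by 1.02 (SE 0.284, limma adjusted p = 0.0245) and passed in 5 of 8 fits without a biosample. Hspa5, the chaperone BiP, gave 0.76 with an adjusted p of 0.101. Of 18 immediate early genes 0 rose and 2 fell (11.1%), with a median of -0.56. Bhlhe40, a transcriptional repressor, was at 39.7, 46.6, 25.4 and 44.5 CPM in normal and 0.2, 0.06, 0.835 and 13.8 CPM in paclitaxel pulldowns, the largest fall among all genes named here at -4.01 (SE 0.883). Jund fell by 1.33.

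Of 25 genes of nerve injury and regeneration 3 rose (12%, against 4.58% of all genes) and 0 fell. Ngfr, the p75 neurotrophin receptor, was at 54.6, 40.0, 140 and 35.2 CPM in normal and 287, 190, 301 and 200 CPM in paclitaxel pulldowns, a change of 2.04 (SE 0.36). Gal, the peptide galanin that damaged sensory neurons make, rose by 1.52 (SE 0.44), and Hspb1 is given above. Atf3, the classical marker of axotomised neurons, was at 19.3, 0.11, 3.93 and 21.8 CPM in normal and 6.68, 11.1, 0 and 4.07 CPM in paclitaxel pulldowns. The groups overlapped and the value of -0.60 (SE 1.02) did not pass.

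Among immune lists, limma called 0 of 12 cytokine and innate immunity genes, while 13 others of the list did not reach the filter. With 6.39% of all genes called, 0 in a list this small is near that share. Of 23 interferon-stimulated genes 1 rose (4.35%, against 4.58% of all genes), Irf9 (1.95), which shares its strand with Rnf31, and 2 fell (8.7%, against 1.81%). These were the class I histocompatibility genes H2-D1 (-1.42) and H2-K1 (-1.33). H2-D1 was at 599, 563, 574 and 1805 CPM in normal and 240, 266, 288 and 365 CPM in paclitaxel pulldowns.

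Markers of other cells of the ganglion mostly did not pass in the pulldown. None of 18 Schwann cell, 13 macrophage, 5 other leukocyte, 9 endothelial, 9 pericyte and smooth muscle and 10 skeletal muscle markers passed. With 6.39% of all genes passing, 0 in lists this small is near that share. Another 8 macrophage, 4 other leukocyte, 3 endothelial and 1 pericyte and smooth muscle markers did not reach the filter and were not tested. In each of 4 other lists 1 gene passed, a share of 7.14% to 12.5% beside 6.39% of all genes. Fabp7 of 14 satellite glia markers rose by 2.37, Ldhb of 14 large-fibre neuron markers by 1.33 and Hbb-bs of 8 erythroid markers by 1.47, and Pi16 of 13 fibroblast markers fell by 1.63. Each of these 4 lost its call in some of the fits that left out a biosample. The sums overlapped between treatments in the pulldown for each of these 10 lists, with 1801 to 2939 CPM in normal and 2365 to 3339 CPM in paclitaxel pulldowns for satellite glia and 2132 to 3446 and 2321 to 3110 CPM for Schwann cells. In the inputs the sums of large-fibre neuron, fibroblast, macrophage, other leukocyte, endothelial and erythroid markers were higher after paclitaxel without overlap. The sum of 16 pan-neuronal markers was lower after paclitaxel in both fractions, 22762 to 44472 against 14452 to 22043 CPM in pulldowns and 15153 to 18173 against 9552 to 11959 CPM in inputs. Uchl1 made up much of that sum, and of the 16 markers 1 rose, Thy1 (1.57), and 1 fell. The part of these sums in the changes above was not tested.

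**Figure D3:**
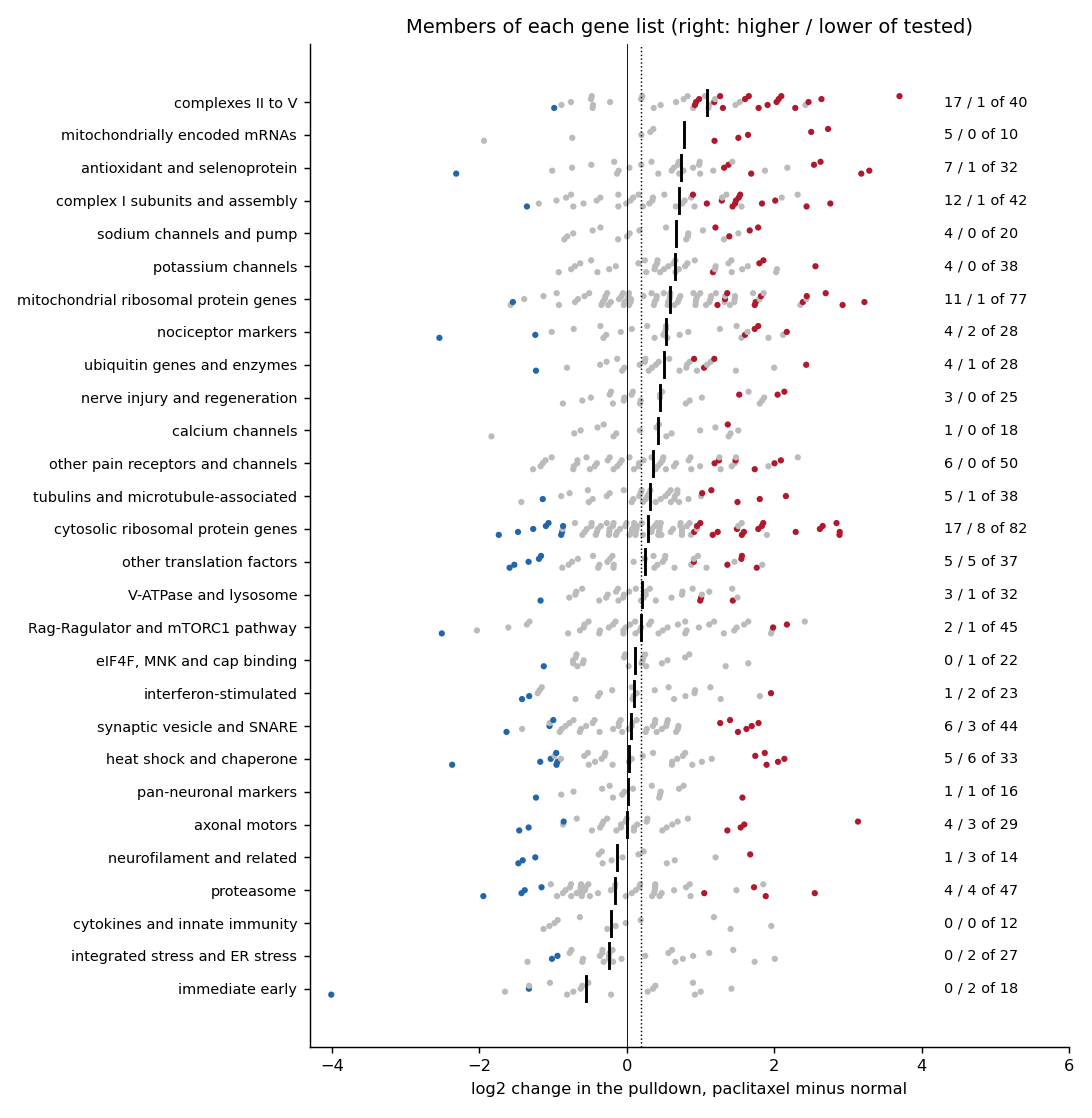
Log2 change in the pulldown of each tested member of 28 gene lists (x axis, paclitaxel minus normal, log2 of CPM + 1), ordered by the median of the list, which a black bar marks. Members that passed are red where higher and blue where lower, and the numbers at the right count them. The dotted line is the median of all genes. Complexes II to V lie at the top with a median of 1.08, and immediate early genes at the bottom with -0.56.

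The 12 largest rises and the 12 largest falls among genes with at least 5 CPM in the higher group include several already given. Fam43b had the largest rise at 4.09 (SE 0.792), from 0.35, 0.89, 8.37 and 2.85 to 107, 42.5, 50.5 and 30.5 CPM. Fam89a rose by 3.52 (SE 0.493), from 9.23, 15.6, 61.3 and 7.03 to 177, 91.3, 241 and 368 CPM. Esyt1, which tethers the endoplasmic reticulum to the plasma membrane, rose by 3.57, and Chchd10, a protein of the mitochondrial intermembrane space, by 3.50. Scpep1, a lysosomal protein, rose by 3.42.

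Others of these rises started from values near the detection limit. A count of 3 reads corresponds to 0.0917 to 0.502 CPM in the pulldowns, a limit that covers counting error only. Alkbh3, a demethylase that repairs alkylated nucleic acid, was at 0.1, 0.34, 0 and 0.17 CPM in normal and 8.71, 5.41, 36.2 and 9.17 CPM in paclitaxel pulldowns. All its normal values are under 1 CPM, so it met the filter of 1 CPM in 4 values only through the group where it is high, and had to differ. Smug1, a uracil-DNA glycosylase, was at 0.05, 0.26, 1.08 and 0.5 CPM in normal and 19.8, 17.7, 19.1 and 5.77 CPM in paclitaxel pulldowns. Coq3 and Cfap206 had the same form, with normal values of 0.15 to 8.04 CPM and paclitaxel values of 6.47 to 34.5 CPM. In input the change of Alkbh3 passed (1.41, adjusted p = 0.0319) and those of Smug1, Coq3 and Cfap206, which were -0.06, 0.70 and 0.11, did not.

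Of the largest falls not yet given, Phc2, a Polycomb protein, was at 476, 350, 200 and 343 CPM in normal and 89.7, 104, 29.3 and 98.9 CPM in paclitaxel pulldowns, a change of -2.16 (SE 0.353). Plekhh3 fell by 3.11, Taco1, which activates translation of a mitochondrially encoded oxidase subunit, by 2.55, Smndc1, a splicing factor, by 2.44, and Ptk2, focal adhesion kinase, by 2.58. Wnt2b fell by 2.89, from 18.1, 7.68, 4.13 and 8.87 to 0.13, 0.24, 0.205 and 0.66 CPM, and passed in none of the 8 fits without a biosample. All its paclitaxel values are under 1 CPM, so it too entered the test only through the group where it is high. Phc2 passed in all 8.

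To ask whether these changes belonged to the tagged ribosomes, the same 11848 genes were tested in the inputs, where 157 (1.33%) passed, 138 higher (1.16%) and 19 lower (0.16%). The input count varied with the biosample left out. It was 0 without biosample 1, 777 without biosample 2, 310 without 3 and 54 without 4. Without 5, 7 and 8 it was 7, 7 and 8. None of the 19 falls passed without biosample 1, 5, 7 or 8. Of the 543 genes that rose in the pulldown, 512 had the same sign in input and 21 passed there, with a median input change of 0.54. Of the 214 that fell, 202 had the same sign and 10 passed, with a median of -0.54. Over all 11848 genes tested, 8105 had the same sign in both fractions. Both fractions come from the same homogenates, so their agreement in sign is not independent.

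The difference between the pulldown and the input change was tested with the biosample as a replicate block, and 27 genes (0.228%) passed, 23 with a higher (0.194%) and 4 with a lower change (0.0338%) in the pulldown. Calca was among them: its inputs were 926, 1836, 1392 and 752 CPM in normal and 1052, 1073, 1410 and 1309 CPM in paclitaxel mice, a change of 0.06, and the difference was 1.72 (SE 0.255, adjusted p = 0.00519). Hagh differed by 2.61, Actg1 by 1.87, Ndufa4 by 1.81, Rpl37 by 1.70 and Dynlrb1 by 1.52, and Plec and Nefm by -1.28 and -1.21. For Actg1 the input values were 1825, 4723, 3167 and 1064 CPM in normal and 2453, 2331, 1772 and 1642 CPM in paclitaxel mice. Without the block, or with the biosample as a random effect, 0 genes passed (990 and 1413 at an unadjusted p under 0.05 in limma). Without biosample 7 the count was also 0, and without biosamples 5, 6 and 2 it was 3, 4 and 7, while without 1, 3 and 4 it was 46, 108 and 57.

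**Figure D4:**
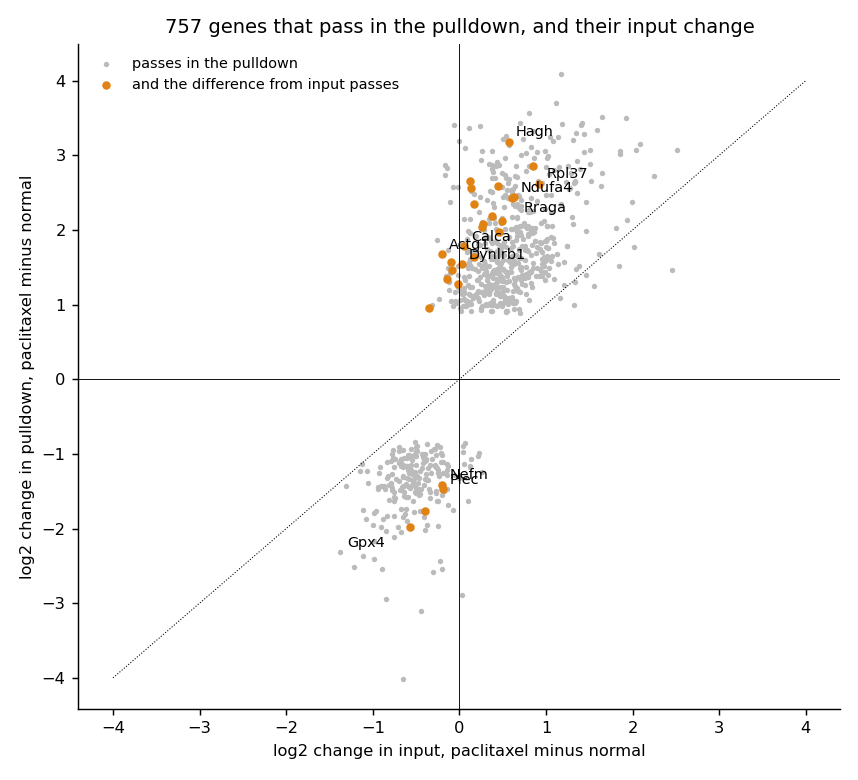
Log2 change in the pulldown (y axis) against that in input (x axis), both paclitaxel minus normal on log2 of CPM + 1, for the 757 genes that passed in the pulldown. Orange points are the 27 genes whose difference between the fractions passed, and the dotted line marks equal change. Most points lie farther from 0 in the pulldown than in input, by which they were chosen, and Calca lies near 0 in input.

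The direction of change went with transcript length. The genes that rose had a median length of 1710 nt, those that fell 2594 nt, and all genes tested with a length 2803 nt. Among the shortest 2372 genes (102 to 1594 nt) 257 rose and 49 fell, and the median change was 0.39. Among the longest 2367 genes, from 4543 nt, 33 rose and 43 fell, and the median was 0.03. In the inputs the medians were 0.20 in the shortest and 0.0757 in the longest bin, and those of the bins between did not fall steadily. With the trend with length and 3′ GC content removed from each library 649 genes passed, 286 higher and 363 lower, and of the 757 genes 492 were among them. Of 208 passing genes followed across the alternatives, 69 did not pass with this trend removed.

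**Figure D5:**
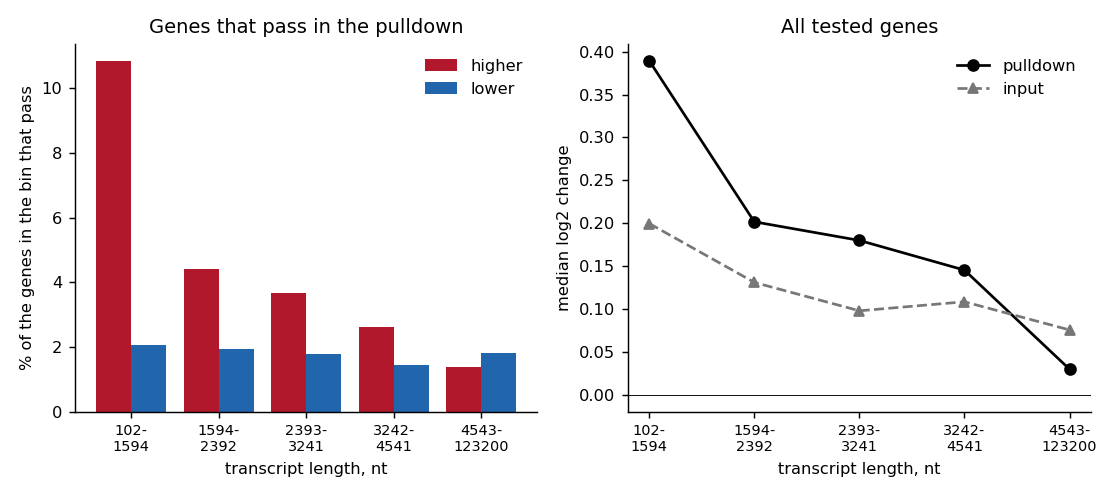
Tested genes in 5 equal bins of transcript length (x axis, nt). Left, the percent of genes in a bin that passed in the pulldown, red higher and blue lower after paclitaxel; right, the median log2 change of all genes in the bin, circles for pulldown and triangles for input. The share that rose is 10.8% in the shortest and 1.39% in the longest bin, and the share that fell is 2.07% and 1.82%.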

How the data were processed

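The series holds 18 3′ end mRNA libraries of mouse dorsal root ganglia, input and anti-GFP pulldown, in 4 groups of 4 biosamples taken from the sample labels. Per the file headers the deposited values are TPM, yet all the authors' columns have the same sum, and in each at least 98.0% of the values above 0 equal a whole number of equal steps (tolerance 0.0051 CPM). They are therefore CPM without division by length, and the step gives the reads per library. In 15 of the 18 libraries 1 to 5 values lie below 1 step, so the recovered reads are estimates. The submitters' processing notes name FastQC 0.11.5, TopHat2 2.1.1, Bowtie2 2.2.9, Cufflinks 2.2.1 and GRCm38.p4, with no order. The strand setting and any molecular identifiers are not given in the sources used here. The authors' 2 merged columns for biosample 7 entered 1 alternative only.

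Genes with at least 1 CPM in 4 of the 8 pulldown values were tested, 11848 of 22021, with limma 3.58.1 in R 4.3.3 on log2(CPM + 1), intensity trend on, all tests two-sided. Inputs were fitted on the same genes. The difference between the fractions had the biosample as a block: the labels put input and pulldown in 1 homogenate, and deviations of same-numbered libraries correlated at 0.055 to 0.414. The input of biosample 1 correlated better with another normal pulldown (0.126 against 0.055). For biosamples 2 and 7 the best other pulldown of the group was close (0.151 against 0.157 and 0.19 against 0.203). The 38 gene lists, matched to 1127 entries, and the genes compared were chosen with earlier results of these data known. Named were the 12 largest changes per direction (5 CPM or more in the higher group, no overlap), 11 subject genes, of which Esm1 did not reach the filter, and up to 4 members per list with the lowest p. Passing list members beyond these and Tubb3, Cyfip2, Hspa5, Rragb and 10 genes whose change differed between the fractions were named after their values were seen where the rule did not take them. Predicted genes were counted only, and some genes that the rule takes are not reported here. Coordinates and lengths are of GENCODE vM21 on GRCm38. Alternatives, among them edgeR 4.0.16 and DESeq2 1.42.0 on the recovered reads, are in the closing section, and removal of the length and GC trend was added after seeing the data. On simulated counts with 200 planted changes among 11293 genes limma called 43.4% of those of 2 log2 units and 7.14% of those of 1 unit.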

Additional observations from a re-analysis of the deposited data

Results flagged for a closer look

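Of 250 groups of 4 pulldown values of passing named genes, 14 had a sample set apart from the other three; chance sets apart about 5% of such groups. In the normal group biosample 3 stood high for Fam89a (61.3 CPM), Cox7a2 (266 CPM), Dnajc5 (137 CPM), Txn1 (1306 CPM), Rab6a (572 CPM) and Coq3 (4.08 CPM), and biosample 4 for H2-D1 (1805 CPM) and Hsp90b1 (2478 CPM). In the paclitaxel group biosample 7 stood high for Rpl23a (746 CPM), Rpl10a (124 CPM) and Alkbh3 (36.2 CPM), biosample 8 high for Bhlhe40 (13.8 CPM) and low for Smug1 (5.77 CPM), and biosample 6 high for Kcnip3 (134 CPM).

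For 18 named genes the change in the pulldown differed from that in input by a test of the difference. On the log2 scale it was larger by 2.61 for Hagh, 2.42 for Cisd2, 2.00 for Slc25a3, 1.87 for Actg1, 1.81 for Ndufa4, 1.8 for Smdt1, 1.72 for Calca, 1.70 for Rpl37, 1.52 for Dynlrb1 and Ywhaq, 1.49 for Gnaq, 1.48 for Rab6a, 1.31 for Synpr and 1.29 for Cd44. It was lower in the pulldown for Nyap1 (-1.41), Anp32b (-1.37), Plec (-1.28) and Nefm (-1.21).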

How the results depend on the processing

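Against 757 genes that passed in the pulldown, limma called 0 without a filter and 0 without the intensity trend, 425 with subsample 1 alone for biosample 7, 1169 at a threshold of 0.1 and 318 without the 4 biosamples with the fewest pulldown genes (1, 2, 5 and 6). edgeR called 430. Leaving out 1 biosample gave 338 to 1019. The other alternatives gave 610 to 1042, among them median-ratio scaling (702) and removal of the length and GC trend (649). The input count ranged from 0 to 777 when 1 biosample was left out, against 157. The difference between the fractions, 27 genes with the replicate block, had 0 without the replicate block, 0 with the biosample as a random effect, 10 and 100 with pseudocounts of 0.1 and 5, and 0 to 108 when 1 biosample was left out. The causes were not tested.

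None of 208 passing genes followed here changed sign in any alternative that tested it. These genes were chosen by passing in the same values, so a change of sign was unlikely from the start. Apart from the fits without a filter or trend, 57 kept their call in every fit that gave them an adjusted p. Fits that gave a gene none were not counted as a loss. edgeR lost 90 and DESeq2 30, with 6 given no adjusted p by DESeq2. Of genes that did not pass, Eif4e gave -0.294 with the length and GC trend removed and Atf3 gave 0.136 without biosample 7, in a range of -1.496 to 0.136 when 1 biosample was left out. Rptor gave -0.149 with median-ratio scaling, -0.181 with quantile normalization, -0.48 with subsample 1 alone, -0.306 with edgeR, -0.305 with DESeq2, -0.27 without the 4 biosamples with the fewest genes, and -0.416 to 0.453 when 1 biosample was left out. Its values of -0.102, -0.416, -0.071 and -0.234 were those without biosamples 2, 3, 5 and 6. Genes near the 3-read floor are limited by depth.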

Other observations

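Among the 27 genes whose change in the pulldown differed from that in input, 10 that the text has not described were picked after their values were seen. Each passed in the pulldown, and for each the 4 normal and 4 paclitaxel pulldown values did not overlap. Slc25a3, the phosphate carrier of the inner mitochondrial membrane, was at 16.2, 65.4, 86.1 and 52.6 CPM in normal and 217, 350, 580 and 324 CPM in paclitaxel pulldowns, a log2 change of 2.85 against 0.86 in input. Smdt1, a regulator of the mitochondrial calcium uniporter, rose by 2.08 in the pulldown, with 0.28 in input. Gnaq, a G protein alpha subunit that couples receptors to phospholipase C, was at 127, 172, 279 and 137 CPM in normal and 536, 512, 458 and 280 CPM in paclitaxel pulldowns, a log2 change of 1.35 against -0.14 in input. Slc25a3, Smdt1 and Gnaq each overlap another annotated gene on their strand, so some of their reads could belong to it.

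Cd44, the hyaluronan receptor, rose by 1.27 in the pulldown, with -0.02 in input, but did not pass in edgeR. Rab6a, a small GTPase of Golgi transport, rose by 1.64 in the pulldown, with 0.17 in input, and also overlaps another gene on its strand. Ywhaq, a 14-3-3 protein, rose by 1.98, with 0.46 in input, and Cisd2, an iron-sulfur protein of the endoplasmic reticulum, by 2.56, with 0.14 in input. Synpr, a synaptic vesicle protein, rose by 0.95, with -0.36 in input, and lost its call in the pulldown with median-ratio scaling, in edgeR and in DESeq2. Nyap1, a phosphoprotein adaptor of neurons, was at 1180, 714, 637 and 736 CPM in normal and 264, 307, 134 and 149 CPM in paclitaxel pulldowns, a log2 change of -1.98 against -0.57 in input. Anp32b, a histone chaperone, fell by 1.77 in the pulldown, with -0.40 in input. As for all 27, the difference between the fractions did not pass for any of these genes without the replicate block.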
